A study of Homo sapiens with 6 samples.

Results

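Keratins of simple epithelia, and the annotated genes whose exons overlap a keratin on the other strand, were followed in MB157, a human cell line established from a triple-negative breast cancer. The members were the count rows of 9 listed genes, namely KRT7, KRT7-AS, KRT8, KRT18, KRT19, KRT23, ENSG00000234477, KRT12 and ENSG00000265359. Every further row with an exon opposite a keratin was added, which gave 12 more, so that the set held 21 of the 57209 rows of the tables. The rule that added the 12 rows uses annotation and not measured values. The 9 listed genes were chosen with earlier results of these data known.

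The libraries came from 2 groups of MB157-Cas9 cells, which by the sample titles carry the Cas9 nuclease. The control group had a control sgRNA and the other an sgRNA targeting SOX9, which encodes an HMG-box transcription factor, each for 4 days. In both, the 50% of cells with the highest sgRNA expression were then taken by cell sorting. Each group held 3 libraries of total RNA. Per the labels these are technical replicates, so that p-values measure the spread between libraries and not between independent cultures. The titles name Cas9, but the series' design text has SOX9 as the stably expressed gene. Guide sequences, and whether the cells are 1 clone, were not given in the sources used here.

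Keratins are intermediate filament proteins that assemble as obligate pairs of a type I chain (KRT18, KRT19, KRT23 and KRT12 here) and a type II chain (KRT7 and KRT8). KRT8 and KRT18 are the primary pair of simple epithelia, KRT7 and KRT19 are added in ductal and luminal cells, and stratified and basal epithelia use other pairs such as KRT5 with KRT14. Breast tumours are typed in part by these proteins. KRT12 is the type I keratin of the corneal epithelium, and KRT23 is a further type I keratin.

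Depth was low, with 776125 to 1018854 counts per library, of which the 21 rows together took 0.199% to 0.286%. SOX9 sgRNA libraries detected 20207 to 21082 genes and control libraries 18326 to 18818. SOX9 itself, the targeted gene, had 38, 52 and 44 counts in control libraries 1 to 3 and 37, 39 and 60 in SOX9 sgRNA libraries 1 to 3 (log2 fold change -0.21, SE 0.25, edgeR's adjusted p = 0.70), so that the transcript counts do not check the labels. Counts were kept by strand, with setting 1 per the file headers, and 80.9% to 81.5% of all counts lay in genes that have an exon on the other strand, as 5003 of the 7959 tested rows do. The labels name a stranded kit (SMARTer Stranded Pico Input, v2), and whether setting 1 matches the orientation of its reads was not given in the sources used here. If it were the opposite setting, rows such as KRT7-AS, ENSG00000234477 and ENSG00000265359 would hold RNA of the keratin strand. The row ENSG00000225410, opposite KRT18, would hold RNA of the KRT18 strand. Rows named for KRT7, KRT8, KRT18, KRT19 and SOX9 would hold RNA of the strand opposite those genes. This was not tested. Which strand's RNA a row holds was not tested here, and each row is therefore described by its name and by what lies opposite it. Clauses below on what a gene encodes are background and do not say that its row holds RNA of that gene. In bulk RNA, fewer cells with a transcript and less transcript per cell cannot be told apart.

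The annotated overlaps at KRT7, KRT12 and KRT23 lay within the bodies of the keratin genes. KRT7-AS (ENSG00000257671, GRCh37 chromosome 12, 52638832 to 52641232, minus strand), annotated as an antisense transcript, shares 282 bp of exon with KRT7 (ENSG00000135480, 52626304 to 52645970, plus strand), or 16.7% of its own 1693 bp. ENSG00000265359 (chromosome 17, 39007052 to 39019534, plus strand, 258 bp), also annotated as antisense, shares 160 bp with KRT12 (ENSG00000187242, 39017555 to 39023462, minus strand). In the reference transcripts of GENCODE release 29 on GRCh38 the stretch shared with KRT12 was 160 bases of exon 6 of 8 (chr17:40863123-40863282, minus strand), all coding. It is printed on the KRT12 strand, with no capitals since no motif was searched in it, because it is where KRT12 and the row that went to 0 occupy the same bases.
KRT12 exon 6: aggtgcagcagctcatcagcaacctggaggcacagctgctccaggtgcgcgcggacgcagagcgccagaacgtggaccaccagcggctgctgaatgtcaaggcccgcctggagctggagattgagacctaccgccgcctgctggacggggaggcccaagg

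ENSG00000234477 (chromosome 17, 39077682 to 39132178, plus strand, 815 bp), annotated as antisense, shares 186 bp with KRT23 (ENSG00000108244, 39078948 to 39093886, minus strand). On GRCh38 these bases were 84 of KRT23 exon 5 (chr17:40928524-40928607, minus strand) and 102 of exon 6 (chr17:40928259-40928360, minus strand), all coding. They are printed on the KRT23 strand because they are the bases where the changed row and KRT23 coincide, and carry no capitals since no motif was searched in them.
KRT23 exon 5: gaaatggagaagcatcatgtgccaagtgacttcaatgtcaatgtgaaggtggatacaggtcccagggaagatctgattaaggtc
KRT23 exon 6: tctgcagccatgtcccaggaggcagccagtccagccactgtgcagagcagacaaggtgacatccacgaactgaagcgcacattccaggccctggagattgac
KRT8 (ENSG00000170421, chromosome 12, 53290977 to 53343738, minus strand) and KRT18 (ENSG00000111057, 53342655 to 53346685, plus strand) are neighbours that overlap head to head by 525 bp of annotated exon. A further row, ENSG00000225410 (53346500 to 53346686, minus strand, 183 bp), lies with 182 bp opposite the 3′ end of KRT18. KRT19 (ENSG00000171345, chromosome 17, 39679869 to 39684560, minus strand) had 0 rows opposite it.

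**Figure D1:**
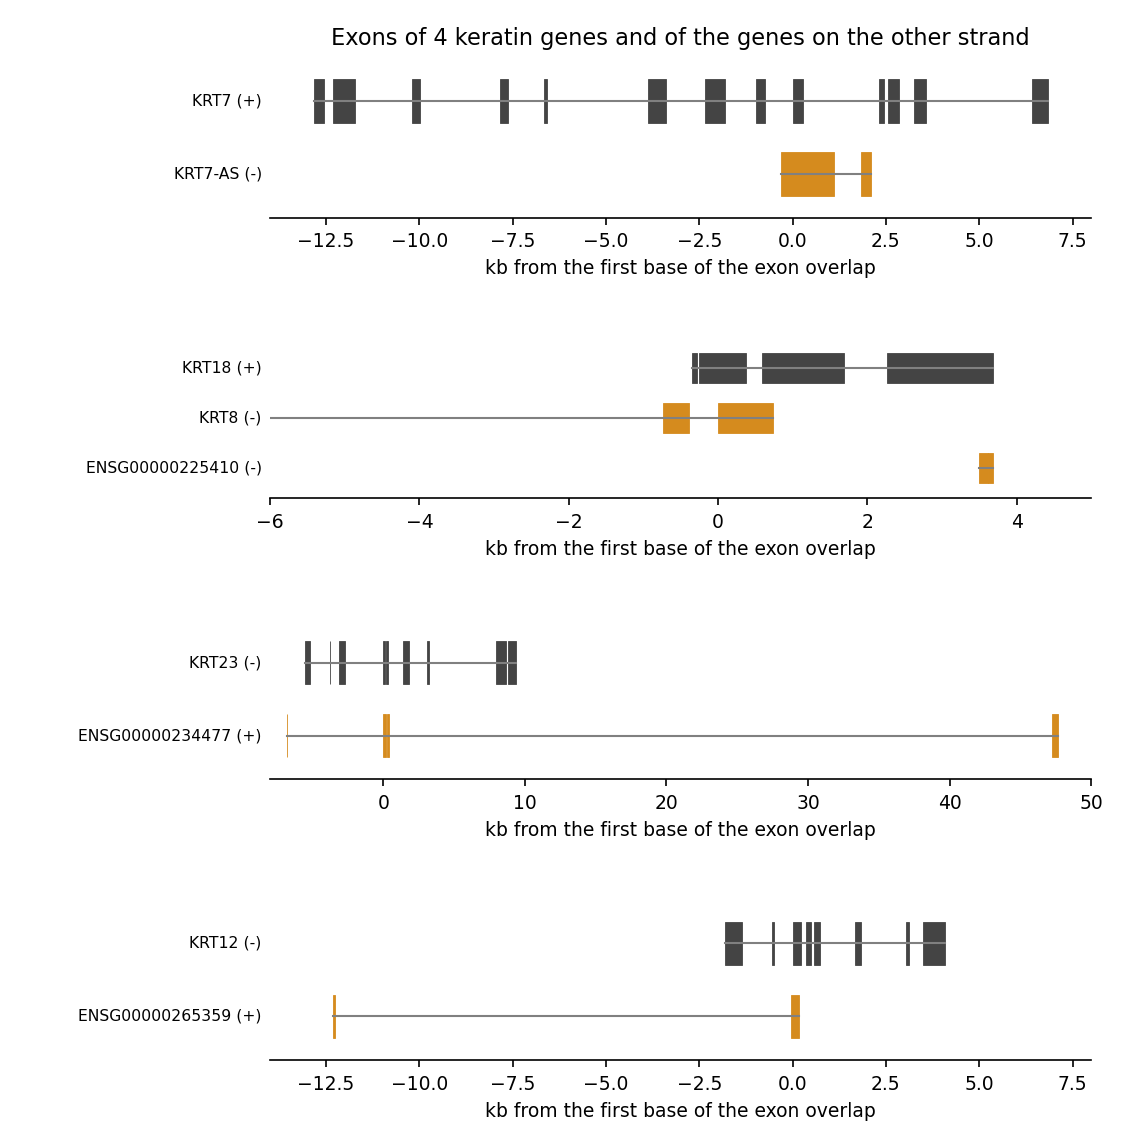
Exons of KRT7, KRT18, KRT23 and KRT12 (dark) and of the genes on the other strand (orange), drawn to scale in kb from the first base of the exon overlap, with the strand in brackets. KRT7-AS overlaps KRT7 by 282 bp, KRT8 overlaps KRT18 by 525 bp, ENSG00000234477 overlaps KRT23 by 186 bp and ENSG00000265359 overlaps KRT12 by 160 bp; KRT8 continues to the left of its panel and KRT87P, opposite KRT7 by 32 bp, is not drawn.

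With the SOX9 sgRNA the rows of KRT7, KRT7-AS, KRT19, ENSG00000234477 and ENSG00000265359 fell, while those of KRT8, KRT18 and ENSG00000225410 did not pass the test. Of the 21 members 9 had enough counts to be tested, 5 of them were lower and 0 higher by edgeR's quasi-likelihood test with Benjamini-Hochberg adjustment over all 7959 genes, where 6.02% of all genes were lower, 2.99% higher and 9.01% called in either direction. At an unadjusted p under 0.05 again 5 were lower and 0 higher, as with DESeq2. Of the 9, all but KRT19 have an exon on the other strand, and 4 of those were lower, where 7.86% of all tested rows with such an exon were. ENSG00000265359 passed the filter on low counts through the control libraries alone. The median log2 fold change of the 9 tested rows was -0.73, against 0.01 over all tested genes. Groups did not overlap in any library for 5 of the 9, against 24.5% of all tested genes. Members had been chosen with earlier results of these data known, so that these counts describe the set and do not test it. When libraries were scaled by their totals and not by TMM factors, the median of all genes moved to 0.18, and the 5 rows remained below 0.

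KRT7-AS held the highest count of the set. Control libraries 1 to 3 had 1353, 1368 and 1254 counts and SOX9 sgRNA libraries 758, 728 and 962, which is 1806, 1737 and 1803 against 913, 946 and 936 CPM, the count relative to the library's total, scaled by TMM factors. Every control library lay above every SOX9 sgRNA library. The mean fell from 1782 ± 39.0 to 932 ± 17.1 CPM (SD, n = 3 each), a log2 fold change of -0.93 (SE 0.073, edgeR's adjusted p = 3.70e-17). Leaving out any library gave -0.96 to -0.92.

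KRT7, the type II keratin of ductal epithelia, had 53, 48 and 35 control counts against 25, 25 and 31. The CPM were 70.8, 61.0 and 50.3 in control libraries against 30.1, 32.5 and 30.2, without overlap. The mean went from 60.7 ± 10.2 to 30.9 ± 1.36 CPM (SD, n = 3 each), a log2 fold change of -0.92 (SE 0.27, edgeR's adjusted p = 0.0183), close in size to that of KRT7-AS on far fewer counts. Whether the rows of KRT7 and KRT7-AS hold separate RNAs was not tested. The call of KRT7 was lost with library totals (-0.75, adjusted p = 0.063), without control library 1 (-0.81, adjusted p = 0.11), without SOX9 sgRNA library 1 (-0.91, adjusted p = 0.059) and without SOX9 sgRNA library 3 (-0.91, adjusted p = 0.064).

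KRT87P, a transcribed keratin pseudogene opposite KRT7 by 32 bp, had 13, 20 and 14 against 7, 10 and 19 counts (log2 fold change -0.56, SE 0.40, edgeR's adjusted p = 0.47), and its groups overlapped. When the rows of KRT7, KRT7-AS and KRT87P were summed before the fit, 4158 control counts stood against 2565, with a log2 fold change of -0.93 (SE 0.072, edgeR's adjusted p = 3.00e-17). KRT7-AS gave 3975 of these control counts and 2448 of those with the SOX9 sgRNA, so that the sum largely repeats its row.

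KRT8, the type II partner of KRT18, had 424, 442 and 371 control counts against 452, 550 and 558. In CPM the control libraries were at 566, 561 and 533 and the SOX9 sgRNA libraries at 544, 715 and 543, so that SOX9 sgRNA library 2 lay above the rest and the others overlapped. The means were 554 ± 17.6 and 601 ± 98.7 CPM (SD, n = 3 each), which gave a log2 fold change of 0.11 (approximate 95% interval -0.08 to 0.30, edgeR's adjusted p = 0.57), and without SOX9 sgRNA library 2 it was -0.033. With library totals KRT8 was called higher (0.29, edgeR's adjusted p = 0.035).

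KRT18 had 23, 34 and 21 control counts against 29, 36 and 51, or 30.7, 43.2 and 30.2 against 34.9, 46.8 and 49.6 CPM, with overlap between the groups. The log2 fold change was 0.32 with a wide interval of -0.24 to 0.88 (edgeR's adjusted p = 0.59). Reads of KRT18 can also fall on its many processed pseudogenes: 17 of 67 KRT18 pseudogene rows had counts, which together came to 185% of the KRT18 row, at 83.6 ± 16.7 CPM in control and 66.6 ± 8.84 in SOX9 sgRNA libraries (SD, n = 3 each). The pseudogene rows came to 5.36% of the row for KRT8 and 2.55% for KRT19. How the authors' counting split such reads was not given in the sources used here. The level of KRT18 is uncertain for that reason, and also because which strand's RNA its row holds was not tested.

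ENSG00000225410, over the 3′ end of KRT18, had 200, 164 and 199 counts against 228, 196 and 263, or 267, 208 and 286 against 275, 255 and 256 CPM, with overlap. Its log2 fold change was 0.05 (approximate 95% interval -0.20 to 0.30, edgeR's adjusted p = 0.90), and -0.090 without control library 2. The sum of KRT18, KRT8 and ENSG00000225410 gave 0.10 (SE 0.084, edgeR's adjusted p = 0.53). For KRT8 and ENSG00000225410 a fall of the size seen for KRT7-AS lay outside the interval, and the interval of KRT18 excluded it as well.

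KRT19, the type I keratin without a tail domain that marks luminal and ductal cells, had 243, 251 and 217 control counts against 134, 141 and 232. In CPM these were 324, 319 and 312 against 161, 183 and 226, again without overlap, with SOX9 sgRNA library 3 closest to control. The mean fell from 318 ± 6.22 to 190.2 ± 32.8 CPM (SD, n = 3 each), a log2 fold change of -0.73 (SE 0.13, edgeR's adjusted p = 1.83e-05). Leaving out any library gave -0.88 to -0.63, past the threshold each time. No annotated exon lies opposite KRT19, and which strand's RNA its row holds was not tested.

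KRT23 was near the limit of detection, with 1, 4 and 1 control counts against 1, 2 and 0, and was not tested. ENSG00000234477, opposite it, had 81, 75 and 67 against 18, 35 and 49 counts, or 108, 95.2 and 96.3 against 21.7, 45.5 and 47.7 CPM. All SOX9 sgRNA libraries lay below all control libraries, library 1 the farthest. The mean fell from 99.9 ± 7.15 to 38.3 ± 14.4 CPM (SD, n = 3 each), a log2 fold change of -1.32 (SE 0.24, edgeR's adjusted p = 3.48e-05), and -1.52 to -1.06 when any library was left out.

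KRT12 had 1 count in SOX9 sgRNA library 2 and 0 in the other libraries. ENSG00000265359, opposite it, had 14, 32 and 31 counts in control libraries, or 18.7, 40.6 and 44.6 CPM, and 0 in each SOX9 sgRNA library. Set against a floor of 3 counts over the SOX9 sgRNA group, ENSG00000265359 was at least 30.2-fold lower (77 counts against 0, edgeR's adjusted p = 1.91e-09), a bound that covers counting error only. The bound was 18.4-fold without SOX9 sgRNA library 3 and lay between 20.7 and 37.2 without any other library. A fitted fold change for a row at 0 depends on the prior count and is not given as a size.

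**Figure D2:**
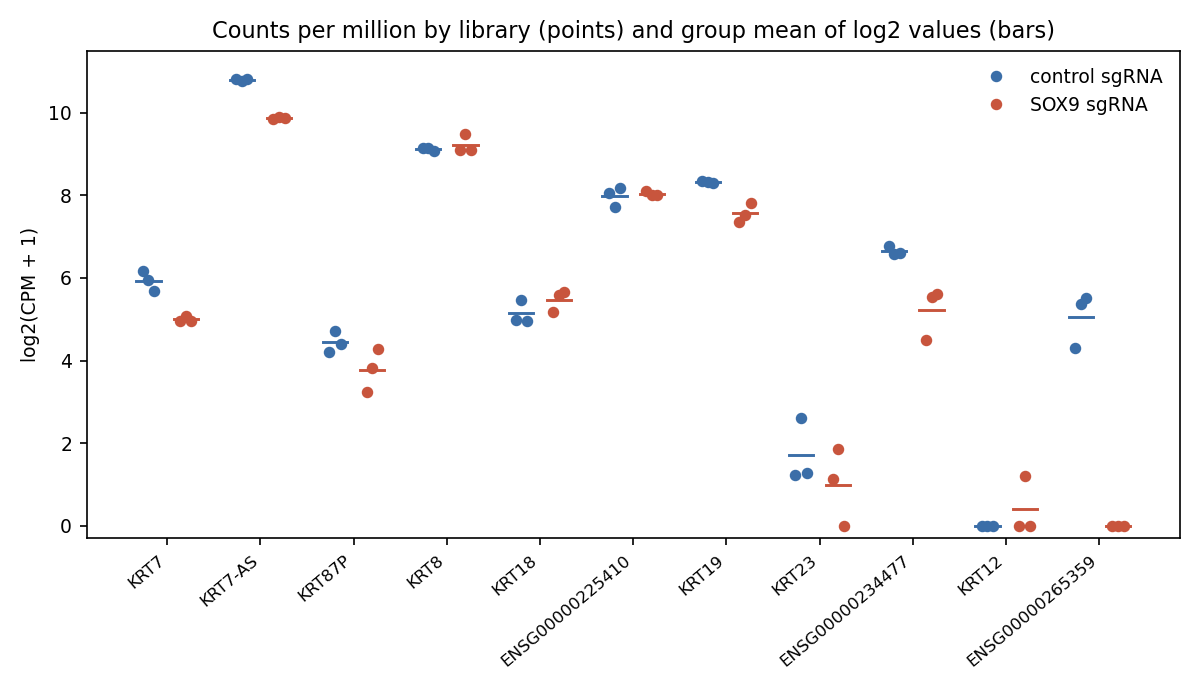
log2(CPM + 1) in each of the 3 control (blue) and 3 SOX9 sgRNA (red) libraries for 11 keratin and opposite-strand rows, with bars at the group mean of the log2 values and libraries 1 to 3 from left to right. KRT7-AS at 1782 against 932 CPM, KRT7, KRT19, ENSG00000234477 and ENSG00000265359 do not overlap between groups, while KRT8, KRT18 and ENSG00000225410 do.

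Per kb of exon, the order of control levels was ENSG00000225410 (1387 CPM per kb), KRT7-AS (1053), KRT19 (136), ENSG00000265359 (134), ENSG00000234477 (123), KRT8 (111), KRT7 (14.8), KRT87P (11.8) and KRT18 (10.8). The mean of ENSG00000265359 differed from its neighbours KRT19 and ENSG00000234477 by less than its own SD of 54.1. KRT87P and KRT18 differed by less than the SD of either (2.30 and 2.28). The other neighbours differed by more than the larger SD. In SOX9 sgRNA libraries the values were 1431, 550, 81.4, 0, 47.0, 120, 7.56, 7.48 and 13.6 CPM per kb in that order of rows. KRT8 thus stood below KRT19 in the control group mean and above it in the SOX9 sgRNA group mean. The 183 bp of ENSG00000225410 make its value per kb sensitive to fragments that only reach into it.

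The larger count of an overlapping pair lay opposite the keratin for KRT7 with KRT7-AS, for KRT18, KRT23 and KRT12, and for KRT37 (0 against 4) and KRT75 (0 against 6). It lay in the keratin row for KRT8 against KRT18, for KRT7 against KRT87P (217 against 83), for KRT10, for KRT86 (58 against 1 and 6), and at 2 against 1 for KRT13 and 3 against 0 for KRT77. Over all libraries KRT7-AS had 6423 counts and KRT7 217, a ratio of 29.6. KRT8 had 2797 and KRT18 194, a ratio of 14.4, and ENSG00000225410 had 1250. ENSG00000234477 had 325 against 9 for KRT23, a ratio of 36.1, and ENSG00000265359 had 77 against 1 for KRT12. KRT10, the type I keratin of suprabasal epidermis, had 173 against 1 for KRT10-AS1, which overlaps it by 56 bp. These sums run over whole exon models, most of which do not overlap, so that they do not locate the counts within the shared bases.

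The share of a pair's counts in the keratin row needs no scaling between libraries, and it overlapped between the groups in the 4 pairs given here. For KRT7 with KRT7-AS it was 3.77%, 3.39% and 2.72% in control libraries against 3.19%, 3.32% and 3.12% (3.29% ± 0.53 against 3.21% ± 0.10, SD, n = 3 each, exact two-sided permutation p = 0.8). For KRT18 with KRT8 it was 5.88% ± 1.10 against 6.85% ± 1.32 (SD, n = 3 each, exact permutation p = 0.5). For KRT18 with ENSG00000225410 it was 12.3% ± 4.20 against 14.3% ± 2.68 (SD, n = 3 each, exact permutation p = 0.5), and for KRT23 with ENSG00000234477 2.58% ± 2.15 against 3.56% ± 3.08 (SD, n = 3 each, exact permutation p = 0.8). With 3 libraries against 3 the smallest p this test can give is 0.1, so that it could not pass 0.05 whatever the difference. For KRT12 with ENSG00000265359 the share was 0% in each control library, and in the SOX9 sgRNA group it rests on the 1 count of KRT12 in library 2.

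The other 10 added rows, opposite KRT10, KRT13, KRT37, KRT72, KRT73, KRT75, KRT77, KRT83, KRT84 and KRT86, had at most 6 counts over all libraries, 4 of them 0, and none was tested. The keratins they lie opposite include hair and epidermal keratins. In all, 15 of 55 keratin genes had an exon opposite.

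**Figure D3:**
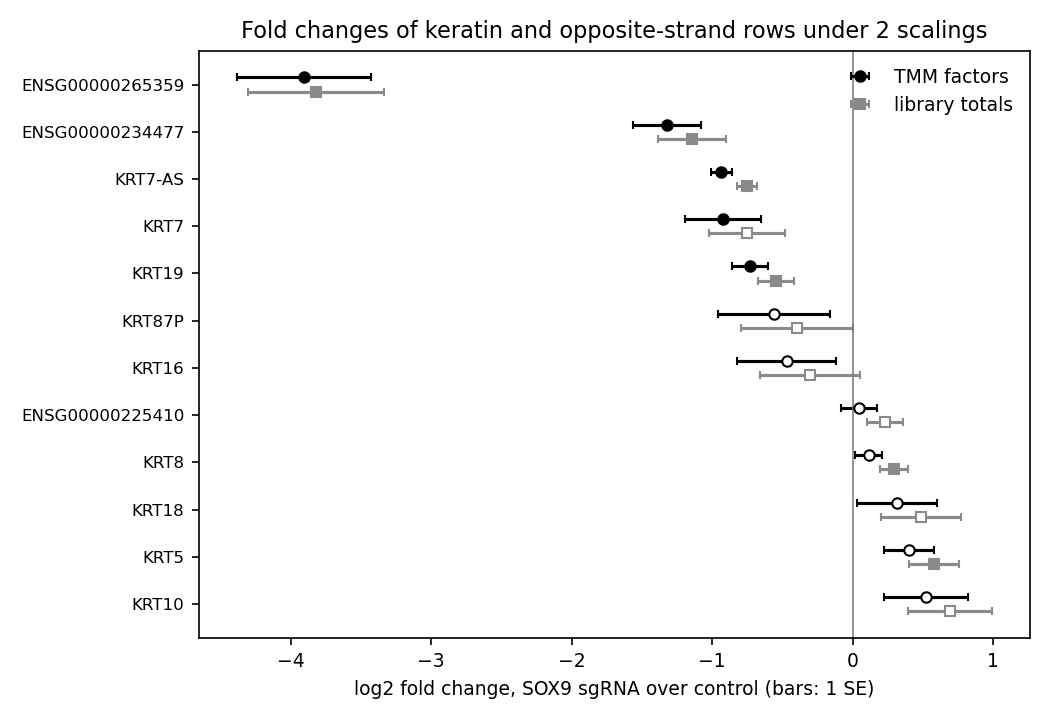
log2 fold change (SOX9 sgRNA over control, bars 1 SE) of the tested members and of the tested keratins KRT5, KRT10 and KRT16 (KRT86 is not drawn), with TMM factors (black circles) and with library totals (grey squares); filled symbols passed an adjusted p of 0.05, and the value of ENSG00000265359 depends on the prior count. KRT7-AS at -0.93, ENSG00000234477 at -1.32 and KRT19 at -0.73 are filled under both scalings, KRT7 only with TMM factors and KRT8 and KRT5 only with library totals.

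Ratios to the KRT8 row within a library, chosen after the counts of these rows had been seen, are a description that needs no scaling and are no further support. KRT7-AS had 3.19, 3.10 and 3.38 counts per KRT8 count in control libraries against 1.68, 1.32 and 1.72, which is 2.05-fold lower in the mean. KRT19 had 0.573, 0.568 and 0.585 against 0.296, 0.256 and 0.416, 1.78-fold lower. ENSG00000234477 had 0.191, 0.170 and 0.181 against 0.0398, 0.0636 and 0.0878, 2.83-fold lower. The groups did not overlap in these 3 ratios, whose rows were chosen for that difference. The ratio of KRT7-AS to KRT19 was 5.60 ± 0.166 against 4.99 ± 0.77 (SD, n = 3 each), with SOX9 sgRNA library 3 lowest at 4.15. These ratios set the rows against KRT8 and do not show that KRT8 was constant.

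**Figure D4:**
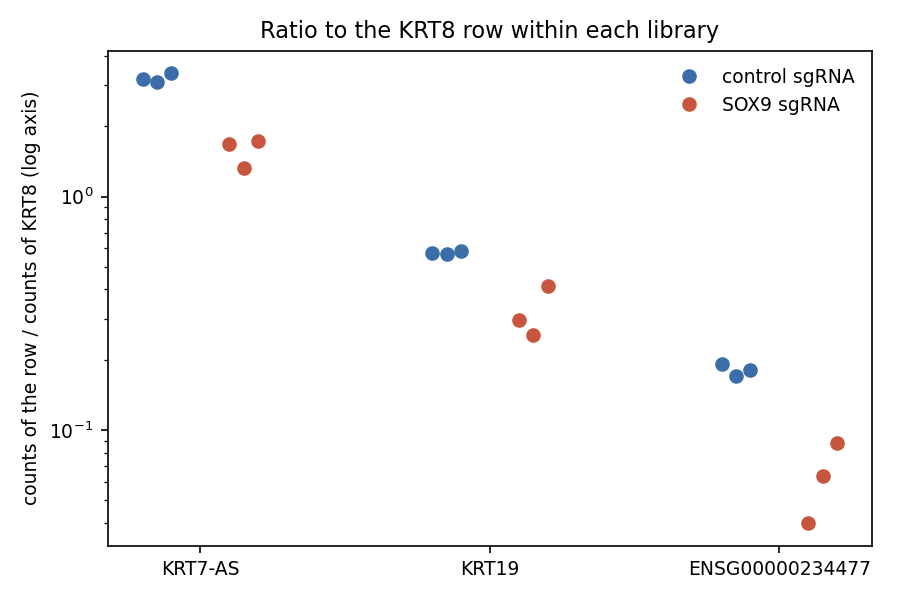
Counts of KRT7-AS, KRT19 and ENSG00000234477 divided by the counts of KRT8 in each library, on a log axis, for 3 control (blue) and 3 SOX9 sgRNA (red) libraries. Means went from 3.22 to 1.57 for KRT7-AS, from 0.575 to 0.323 for KRT19 and from 0.180 to 0.0638 for ENSG00000234477, with no overlap between groups.

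Among all 55 keratin genes 27 had at least 1 count, 8 were tested, and KRT7 and KRT19 alone were called, both lower, with a median log2 fold change of 0.21 over the 8. In the list of simple epithelial keratins 4 of 6 were tested and 2 were lower, with a median of -0.31, and KRT20, an intestinal and urothelial keratin, was at 0 in all libraries. Of 22 stratified and basal keratins 3 were tested and 0 called by edgeR or DESeq2, 1 being higher at an unadjusted p under 0.05, with a median of 0.40. KRT5, the type II keratin of basal cells, had 62, 78 and 79 control counts against 113, 102 and 127, or 98.5 ± 15.4 against 131 ± 6.42 CPM (SD, n = 3 each). Its groups did not overlap, its log2 fold change was 0.40 (SE 0.18, edgeR's adjusted p = 0.17), and with library totals it was called higher (0.58, adjusted p = 0.024). KRT10 gave 0.52 (SE 0.30, edgeR's adjusted p = 0.32), KRT16, a keratin of stressed epidermis, -0.47 (SE 0.35, edgeR's adjusted p = 0.50) and KRT86, a hair keratin, 0.42 (SE 0.50, edgeR's adjusted p = 0.71).

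KRT14, the partner of KRT5, had 14, 9 and 16 control counts against 1, 0 and 6 and did not pass the filter. With no filter its log2 fold change was -2.03 (SE 0.53, edgeR's adjusted p = 0.0099), so that KRT5 and KRT14 had opposite signs. KRT17 had 0, 3 and 0 against 7, 4 and 10 counts, but shares exons on the same strand with JUP, and with no filter it was not called (edgeR's adjusted p = 0.43).

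Desmosomes and cytolinkers hold keratin filaments at the membrane. Of 21 desmosome and cytolinker entries 20 matched an identifier and 13 were tested, 1 higher and 0 lower by edgeR (2 higher and 2 lower at an unadjusted p under 0.05, 0 called by DESeq2), with a median log2 fold change of 0.00 against 0.01 over all genes. PPL, which encodes the cytolinker periplakin, went from 57.2 ± 13.6 to 94.9 ± 16.9 CPM (SD, n = 3 each; log2 fold change 0.71, SE 0.22, edgeR's adjusted p = 0.029). The call of PPL was lost with DESeq2 (adjusted p = 0.086), with no filter (edgeR's adjusted p = 0.083), and without control library 1 or 3 or SOX9 sgRNA library 2 or 3 (0.54, 0.72, 0.73 and 0.56). TCHP, a keratin-binding protein gene that lies opposite GIT2, gave 0.26 (edgeR's adjusted p = 0.077), DSP, which encodes desmoplakin, 0.20 (edgeR's adjusted p = 0.45), and PLEC, which encodes plectin, -0.25 (edgeR's adjusted p = 0.39).

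Of 16 other intermediate filament entries 15 matched, 6 were tested and 1 was lower, with a median of -0.25. VIM, the vimentin gene of mesenchymal cells, fell from 225 ± 18.5 to 72.9 ± 9.03 CPM (SD, n = 3 each; log2 fold change -1.58, SE 0.17, edgeR's adjusted p = 8.26e-12), a larger fall than those of KRT7, KRT7-AS or KRT19 in estimate. VIM has exons of ENSG00000234961 and VIM-AS1 on the other strand. SYNC, which lies opposite RBBP4, gave -0.20 (edgeR's adjusted p = 0.14), and the lamin genes LMNA and LMNB1 -0.27 (edgeR's adjusted p = 0.36) and -0.72 (edgeR's adjusted p = 0.14).

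Transcription and splicing regulators of epithelial keratin genes were tested for 8 of 19 entries, 0 of them called by edgeR or DESeq2 and 1 lower at an unadjusted p under 0.05, with a median of -0.03. ELF3, an epithelial ETS factor, had 82, 74 and 93 counts against 60, 51 and 88 (log2 fold change -0.56, SE 0.20, edgeR's adjusted p = 0.064), GRHL2, a grainyhead factor, gave -0.37 (edgeR's adjusted p = 0.34), the splicing factor gene ESRP2 0.31 (edgeR's adjusted p = 0.35) and TFAP2A 0.12 (edgeR's adjusted p = 0.82). On the other strand, ELF3 has exons of ELF3-AS1, GRHL2 of ENSG00000254024, ESRP2 of NFATC3 and TFAP2A of TFAP2A-AS1.

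Markers of cell types moved beside the keratins as follows, as summed CPM of library totals without factors. The 8 epithelial markers ranged from 307 to 389 in control and from 268 to 303 in SOX9 sgRNA libraries, with 0 of them at 0 in all libraries, 7 tested, 0 called by edgeR or DESeq2 and 3 lower at an unadjusted p under 0.05. Basal or myoepithelial markers ranged from 200.8 to 240.4 against 253 to 256 with TP63 and OXTR at 0, and mesenchymal markers from 226 to 243 against 116 to 143, where VIM was lower and FN1, the other tested gene, had 17, 18 and 9 counts against 29, 31 and 41 (log2 fold change 0.89, SE 0.32, edgeR's adjusted p = 0.071) without overlap. Immune markers ranged from 21.6 to 37.3 against 48.1 to 69.6 with CD3E and LYZ at 0. Endothelial markers were at no more than 1.29 in any library with VWF and CDH5 at 0, and fibroblast markers ranged from 2.38 to 5.14 against 3.93 to 10.8 with COL3A1 and LUM at 0. Basal rows did not all move in the same direction: KRT5 had 219 control counts against 342, and KRT14 had 39 against 7. With library totals the median log2 fold change of all tested genes was 0.18. Some markers have exons of another gene on the other strand, such as CLDN7 with ELP5. Which strand's RNA the marker rows hold was not tested, nor was the part of these cell types in the keratin values.

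The genes whose log2 CPM followed KRT7-AS most closely over the 6 libraries, among 2455 genes whose average log2 CPM was 6 or more, were S100A13, ENSG00000272030, ENSG00000227407 and ENSG00000249180, each with Pearson's r of 0.999. Their log2 fold changes were -3.08, -2.24, -4.49 and -0.26. On the other strand, S100A13 and ENSG00000272030 have exons of CHTOP and S100A1, ENSG00000227407 of ENSG00000268496 and TTYH1, and ENSG00000249180 of CAST. A total of 26 genes reached an r above 0.99, and the 6 points share 2 groups, so that r is a description of how these libraries separate.

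Promoters were looked up in the RefSeq table (GRCh38.p14, 250 bases before to 50 after the start) for 7 members, and KRT7-AS, KRT8 and KRT12 were found. The letters CATTGT or their reverse complement ACAATG, a core that SOX factors bind, were searched on both strands. The promoter of KRT7-AS (chr12:52247399-52247698, minus strand) held 1 copy, in capitals below, starting at base 169, and is printed because KRT7-AS has the highest count of the rows that fell.
KRT7-AS promoter: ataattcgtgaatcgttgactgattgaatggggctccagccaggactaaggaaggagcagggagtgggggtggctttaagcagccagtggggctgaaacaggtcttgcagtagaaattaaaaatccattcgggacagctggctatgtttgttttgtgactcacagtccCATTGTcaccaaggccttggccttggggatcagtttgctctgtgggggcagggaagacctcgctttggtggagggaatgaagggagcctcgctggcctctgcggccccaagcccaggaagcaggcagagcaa
The promoters of KRT8 and KRT12 held 0 copies. Among 35116 RefSeq promoters of that length, 3786 (10.8%) held the letters. A match is a description of the letters and not a binding site. Whether the RNA counted in the KRT7-AS row starts at the printed promoter was not tested, and no promoter of KRT7 was found.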

How the data were processed

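Gene counts of 6 RNA-seq libraries were used, deposited by the authors as raw counts without normalization, 1 table per library. Per the labels' protocols, RNA was isolated on RNeasy Plus Micro columns and libraries were made with a SMARTer Stranded Pico kit. The submitters' processing notes name STAR 2.7.10a, Subread 1.6.2 with featureCounts, and GRCh37 (hg19). Fragments were counted over Ensembl 75 exons by featureCounts 1.6.2, per the file headers, with strand setting 1 and with a fragment counted for every gene it overlaps, so that genes sharing exons on a strand share counts. Totals ran from 776125 to 1018854 counts per library.

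The test was edgeR 4.0.16 in R 4.3.3 (filterByExpr, TMM factors, robust quasi-likelihood test, group as the only term), with Benjamini-Hochberg adjustment over 7959 tested genes and a threshold of 0.05. The procedure was first tested on simulated data. CPM are relative to the total over tested genes, scaled by TMM. Log2 fold changes set SOX9 sgRNA against control with a prior count of 2, and its approximate 95% interval is built from the SE. Chi-square per degree of freedom between libraries was 1.97 to 2.44 within a group, above counting error, and 4.41 to 5.57 between groups.

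Exon overlaps on the other strand came from the deposited coordinates with bedtools 2.31.1. Symbols were found for 38994 of the 57209 identifiers. Biotypes and exon sequences came from GENCODE release 29 (GRCh38) and promoters from RefSeq (GRCh38.p14); gene positions are those of the tables (GRCh37). The genes named were all listed members, rows opposite a keratin where either had a mean of at least 10 counts, list genes past the threshold, up to 4 tested genes of highest mean CPM per list, and the 4 genes most like KRT7-AS; KRT14, KRT17, KRT20 and KRT86 were named beyond that after their values were seen. Members and lists were chosen with earlier results of these data known. Alternatives were library totals, DESeq2 1.42.0, no filter, a mean of at least 30 counts, a replicate block, a prior count of 0.5, a fit without robust estimation, summed strands and leaving out each library. The sequence of 1 further overlap is not reported here.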

Additional observations from a re-analysis of the deposited data

How the results depend on the processing

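The falls of KRT7-AS, KRT19, ENSG00000234477 and ENSG00000265359 kept their direction and stayed past the threshold under every alternative that could be run for them; a mean of at least 30 counts left ENSG00000265359 and KRT87P out. KRT7 lost its call with library totals and in 3 of 6 fits without a library. Member rows called lower numbered 4 to 5 when a library was left out, with 0 called higher; with library totals 1, KRT8, was called higher. Over all genes, 238 were higher and 479 lower; library totals gave 625 and 249, DESeq2 gave 130 higher and no filter 151 higher, and leaving out a library gave 161 to 207 higher and 364 to 430 lower. The cause was not tested. The sign turned for KRT8 without SOX9 sgRNA library 2 and for ENSG00000225410 without control library 2, neither called, with ranges over the left-out libraries of -0.033 to 0.18 and -0.090 to 0.13. Libraries with the same replicate number did not deviate together (r of 0.01, 0.02 and -0.03 over 3653 genes); with a replicate block 574 genes were called in place of 717, KRT7 stayed called (-0.91, edgeR's adjusted p = 0.036) and no call of a member changed. Depth limits KRT7, KRT18 and KRT87P, with at most 53 counts per library, and leaves KRT23 and KRT12 untested.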
